A study of Homo sapiens with 29 samples.

Results

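MITF, TFEB, TFE3 and TFEC are the 4 genes of the MiT/TFE family of transcription factors, and they are described here in WM239A cells, a human metastatic melanoma line, before, during and after treatment with the BRAF inhibitor LGX818 (encorafenib). Members were taken by symbol from the deposited table of unnormalized counts, which gave 1 row for each of the 4 genes among 60675 listed genes. Polyadenylated RNA was sequenced in 29 libraries that fell into 10 groups. Without drug, vector control cells and cells that overexpress BRAF-V600E were sampled. The same BRAF-V600E cells were sampled after 20 hours and after 7 days (week 1) of LGX818 at 500 nM. A continuous arm stayed on 500 nM and was sampled on days 14, 21 and 28 (weeks 2, 3 and 4). In the intermittent arm, 7 days of drug were followed by 7 days in DMSO vehicle, so that cells were off drug at week 2, on drug again at week 3 and off drug at week 4. Each group held 3 libraries except week 4 continuous, which held 2. All drug groups carry the BRAF-V600E construct, and the labels do not say whether that line is 1 clone or a pool. Cells were frozen as they were collected and the RNA of all groups was purified together at the end. "Untreated" below means BRAF-V600E cells without drug; they were sampled once, so comparisons of weeks 2 to 4 with them include the time in culture. Nothing in the labels makes the replicates separate cultures, so p-values measure the spread between these libraries, which may be technical.

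The 4 proteins share a basic helix-loop-helix leucine zipper, bind E-box sequences in DNA as homodimers or as heterodimers with one another, and so can act on overlapping genes. MITF is the lineage factor of melanocytes: it drives pigment genes and takes part in survival and cell cycle control in melanoma, and its abundance is used to tell melanoma cell states apart. TFEB and TFE3 control lysosome and autophagy genes and are held in the cytoplasm when mTORC1 phosphorylates them, through the Rag GTPases and the FLCN-FNIP complex at the lysosome. TFEC is the least studied member and is best known from macrophages. RNA levels say nothing of this control by phosphorylation and location.

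MITF is read from several promoters, and the one used in melanocytes is known to be activated by the cAMP pathway through CREB, by the Wnt pathway through LEF1, and by SOX10 and PAX3. A stretch of it is shown because regulators that bind there are described below. It is the most 3′ of 3 MITF windows in RefSeq on GRCh38.p14, lies at chr3:69936372-69936471 on the plus strand, and covers positions -220 to -121 from the annotated start at 69936592. Capitals mark an LEF1-type motif (CTTTGAT, first base at -204) and a cAMP response element (TGACGTCA, first base at -152).
MITF: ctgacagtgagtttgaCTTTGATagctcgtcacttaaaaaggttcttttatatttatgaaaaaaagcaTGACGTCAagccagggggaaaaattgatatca
Searched on both strands, CTTTGAT was in 1 of the 9 RefSeq promoter windows of the 4 members and in 2.62% of all 35116 windows, and TGACGTCA was likewise in 1 of 9 and in 1.85% of all. The TGACGTCA string reads the same on both strands and does not overlap CTTTGAT here. A match is a description of these letters and not evidence of binding in these cells.

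On GRCh38 with GENCODE 29, MITF (ENSG00000187098) lies on chromosome 3 from 69739435 to 69968337 on the plus strand, with 21 merged exons of 7181 bases. TFEB (ENSG00000112561) lies on chromosome 6 from 41683978 to 41736259, TFE3 (ENSG00000068323) on the X chromosome from 49028726 to 49043486, and TFEC (ENSG00000105967) on chromosome 7 from 115935148 to 116159896, all on the minus strand. Their merged exons cover 5648, 4283 and 8644 bases in that order. No exon of the 4 overlaps an exon of another annotated gene. The counts are per gene, so the melanocyte form of MITF was not separated from its other isoforms.

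Library totals ran from 22934039 to 35804978 counts. Levels are given in CPM (counts of a gene relative to the TMM-scaled library total, per 1e6). All 4 members passed the filter on low counts, TFEC with 25 of 29 libraries at or above the cutoff of 0.34 CPM and the other members with 29. BRAF, the overexpressed gene, stood at 37.6 to 43.2 CPM in vector cells and at 889.0 to 902.8 CPM in untreated BRAF-V600E cells, and reached 3169.9 to 3496.5 CPM in the 2 off-drug groups. The intermittent week 3 columns carry an off-drug name in the table, against the sample labels, which were followed. The ERK-induced phosphatase DUSP6 was at 100.8 to 116.3 CPM in those 3 libraries, at 638.9 to 674.6 CPM at week 2 off drug and at 60.9 to 66.1 CPM at week 1. In 4 libraries (week 2 continuous replicate 3, week 2 off replicate 3, week 3 continuous replicate 1 and week 3 on replicate 1) counts differed from those of both other replicates by a chi-square per gene over 15. Comparisons that include any of those groups were also fitted without these libraries. The MITF share and the closest patterns below were not computed without them. Melanocytic markers were detected in every group; their summed level was 2054.7 to 2187.5 CPM in untreated cells and 346.4 to 389.2 CPM at week 2 continuous. Summed keratinocyte markers stayed between 9.4 and 24.9 CPM in every library, endothelial ones between 0.19 and 7.0 CPM, and lymphocyte ones at or below 0.42 CPM. Within these sums, KRT14 was called higher at week 1 (0.013 to 1.47 CPM), and KRT1 went from 0 counts at week 1 to a mean of 3.23 CPM at week 2 off drug (called). At that withdrawal KRT5 was also called higher (0 to 0.31 CPM). KRT14 (1.47 to 0.40 CPM) and KRT10 (20.25 to 14.65 CPM) were called lower, so the keratinocyte markers split. The endothelial genes PECAM1 and VWF rose with MITF and TFEB in the first withdrawal (0.058 to 2.78 CPM and 0.53 to 2.0 CPM) and in the second (0.14 to 3.99 CPM and 0.71 to 1.51 CPM), all calls, and their part in the members' results was not tested.

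MITF RNA rose 2.07-fold within 20 hours of drug, then fell 30.6-fold below the untreated level by day 7, and was still 3.81-fold below it after the second week off drug. TFE3 and TFEC rose by day 7, 2.38-fold and 17.2-fold, and each later library was above every untreated one in both genes. TFEB was never above 3.25 CPM. Across 20 comparisons fitted in 1 edgeR quasi-likelihood model, with Benjamini-Hochberg adjustment over 20494 genes and a threshold of 0.05, MITF passed in 17, TFEC in 16, TFEB in 14 and TFE3 in 10. Calls were common among all tested genes too, from 6.93% (week 4 against week 3 continuous) to 60.0% (week 2 off against untreated). The share is given with each comparison below. Groups that do not overlap, which are pointed out below, were common: 61.1% of all tested genes at 20 hours and 63.1% at week 1 against untreated cells, 61.3% at the first withdrawal, 55.8% at rechallenge and 49.3% at the second withdrawal. For the other comparisons this share is not given. Lack of overlap there describes the libraries only and is not read as a result about the members. In bulk RNA, a change in the share of cells that express a gene and a change in RNA per cell cannot be told apart.

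**Figure D1:**
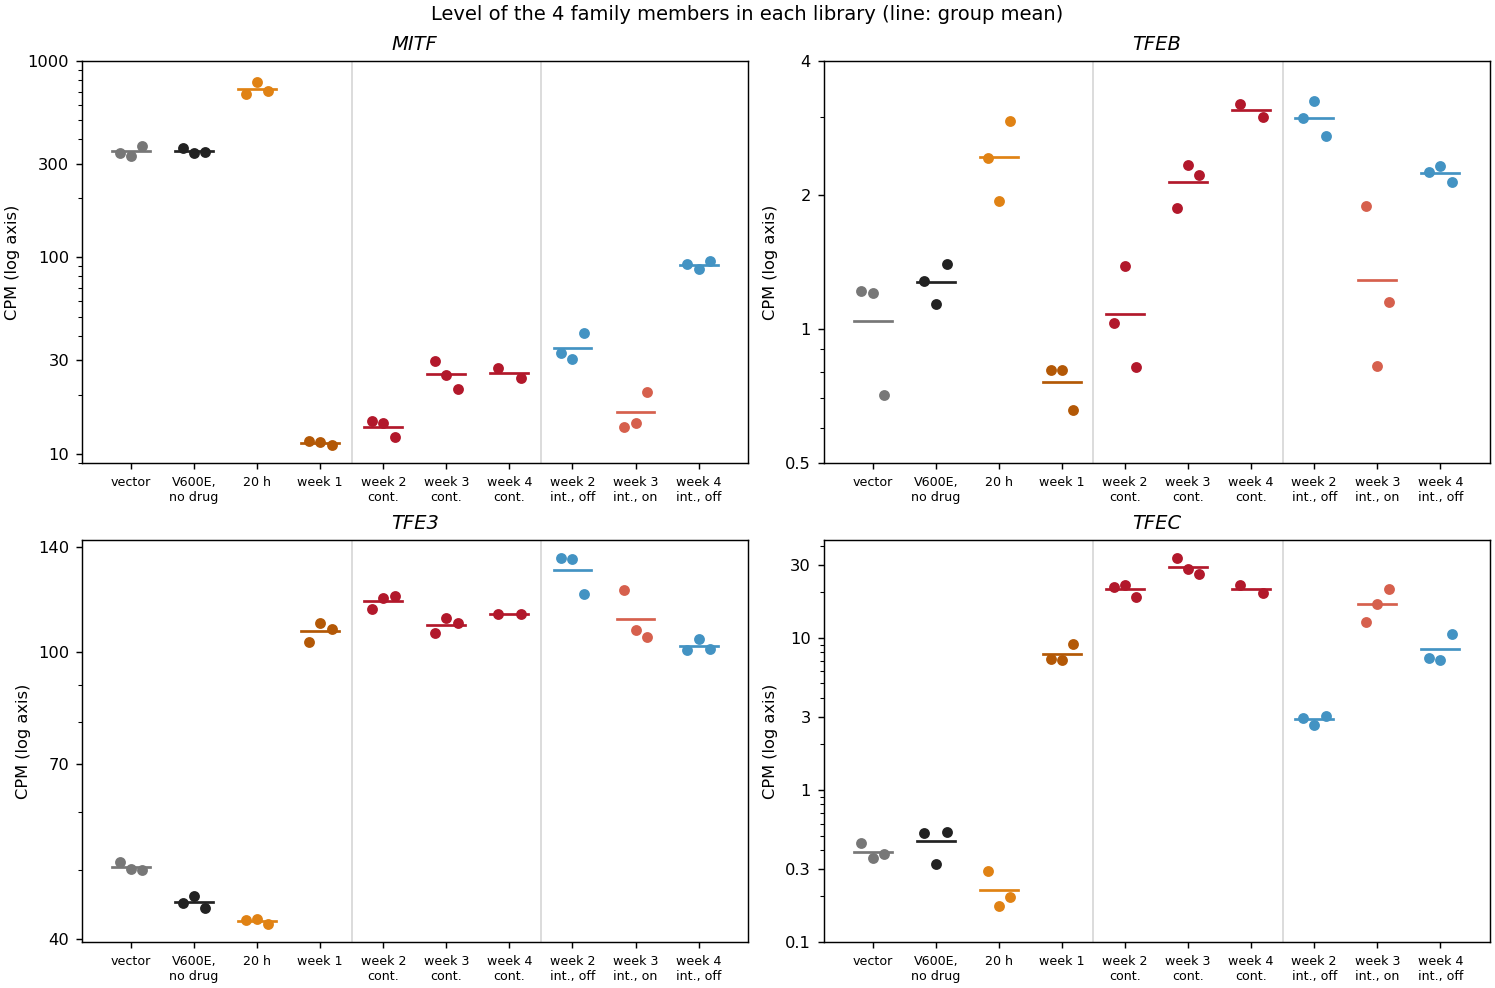
Level of MITF, TFEB, TFE3 and TFEC in each of the 29 libraries, in CPM on log axes that differ between panels; points are libraries and lines are group means. MITF is highest at 20 hours (681.9 to 779.7 CPM) and lowest at week 1 (11.1 to 11.6 CPM), while TFE3 and TFEC are higher in every library from week 1 on than in untreated cells.

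In vector cells MITF stood at 339.6, 329.9 and 369.8 CPM and in untreated BRAF-V600E cells at 361.4, 342.1 and 343.9 CPM. The groups overlapped, and the log2 difference of 0.01 ± 0.11 (SE) did not pass the test (edgeR adjusted p = 0.987). TFE3 was at 51.2, 50.2 and 49.9 CPM in vector cells and at 44.9, 46.0 and 44.2 CPM in untreated cells. Every BRAF-V600E library was below every vector library, but the log2 difference of -0.16 ± 0.06 did not pass either (adjusted p = 0.0791). With TFEB at 0.26 (adjusted p = 0.586) and TFEC at 0.19 (adjusted p = 0.833), 0 of 4 members were called without drug, where 17.0% of all tested genes were. Without adjustment 1 of the 4, TFE3, had a p under 0.05, and DESeq2 likewise called 0.

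After 20 hours of LGX818, MITF stood at 681.9, 779.7 and 707.0 CPM, each above every untreated library. The rise was 1.05 ± 0.11 on the log2 scale, a 2.07-fold change (edgeR adjusted p = 2.99e-09). TFEB rose as well, from 1.28, 1.14 and 1.40 CPM to 2.43, 1.94 and 2.93 CPM, by 0.94 ± 0.24 (1.92-fold, adjusted p = 0.00156). All 3 treated TFEB libraries were above all 3 untreated ones, on 45 to 74 counts each. TFE3 at 42.5, 42.7 and 42.1 CPM was slightly below every untreated library and did not pass (-0.09, adjusted p = 0.268). TFEC was at 0.29, 0.17 and 0.20 CPM, on only 4 to 7 counts per library, against 0.52, 0.32 and 0.53 CPM untreated, and its difference of -1.01 ± 0.48 did not pass (adjusted p = 0.0744), although without untreated replicate 2 it did (-1.26, adjusted p = 0.0426). So 2 of 4 members were called at 20 hours, both higher, where 53.7% of all tested genes were called.

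By day 7 the order of the family had changed. MITF was at 11.56, 11.48 and 11.12 CPM, and the 3 libraries sat within a narrow band far below every untreated library. MITF fell by 4.94 on the log2 scale (SE 0.14), a 30.6-fold decrease (edgeR adjusted p = 2.28e-23), and the decrease from 20 hours was 63.5-fold (adjusted p = 4.97e-25). TFE3 rose to 103.5, 109.9 and 107.7 CPM, a 2.38-fold increase with no overlap (1.25 ± 0.06, adjusted p = 6.29e-17). TFEC rose to 7.25, 7.10 and 9.12 CPM, each above every library without drug or at 20 hours, a 17.2-fold increase (4.10 ± 0.24, adjusted p = 2.88e-15). TFEB was at 0.81, 0.81 and 0.66 CPM, below all untreated libraries, and fell by 0.74 (SE 0.27, adjusted p = 0.0227). That TFEB call was lost when untreated replicate 1 was left out (-0.72, adjusted p = 0.0525), and likewise for untreated replicate 3 (-0.65, 0.0804) and week 1 replicate 3 (-0.65, 0.0823). With 2 members up and 2 down, 4 of 4 were called at week 1 against 54.2% of all tested genes, and 4 of 4 between 20 hours and week 1 against 57.7%.

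Under continuous drug MITF stayed low but crept upward. It was at 14.66, 14.39 and 12.19 CPM at week 2, at 29.56, 25.18 and 21.46 CPM at week 3, and at 27.32 and 24.43 CPM at week 4. Every library of weeks 3 and 4 was above every library of weeks 1 and 2, and the groups of weeks 3 and 4 overlapped. The step from week 1 to week 2 did not pass (0.27, edgeR adjusted p = 0.128), the step to week 3 did (0.88 ± 0.13, 1.84-fold, adjusted p = 3.84e-06), and the step to week 4 did not (0.03, adjusted p = 0.934). At week 4 MITF was still 13.5-fold below untreated cells (adjusted p = 2.55e-19).

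TFEC rose again in the second week of the continuous arm, and the later weekly steps were less firm. At week 2 it was at 21.45, 22.07 and 18.58 CPM, above all week 1 libraries (2.65-fold, 1.40 ± 0.15, edgeR adjusted p = 1.55e-08). At week 3 it was at 33.53, 28.05 and 26.32 CPM, again without overlap (1.41-fold, 0.50 ± 0.14, adjusted p = 0.0104); without the libraries that stand apart that step was 0.33 (adjusted p = 0.0876), without week 2 continuous replicate 3 it was 0.43 (adjusted p = 0.0505) and without week 3 continuous replicate 1 it was 0.39 (adjusted p = 0.0812). The 2 libraries of week 4 were at 22.24 and 19.69 CPM, below those of week 3, a difference of -0.48 that did not pass (adjusted p = 0.0652). Against untreated cells TFEC was 46.1-fold higher at week 4 (5.53 ± 0.24, adjusted p = 1.08e-18).

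TFE3 held a plateau. Week 2 continuous libraries were at 115.0, 118.8 and 119.9 CPM, week 3 at 106.4, 111.6 and 109.7 CPM, and week 4 at 112.9 and 113.2 CPM. None of the 3 weekly steps passed, at 0.14 (edgeR adjusted p = 0.0889), -0.11 (adjusted p = 0.221) and 0.05 (adjusted p = 0.742). TFEB was at 1.03, 1.39 and 0.82 CPM at week 2, at 1.87, 2.34 and 2.21 CPM at week 3 and at 3.20 and 2.99 CPM at week 4. Its libraries of weeks 3 and 4 were above all of those of week 2, and the step from week 2 to week 3 passed (1.98-fold, 0.98 ± 0.25, adjusted p = 0.00355). At week 4 both TFEB (2.44-fold, adjusted p = 7.14e-05) and TFE3 (2.51-fold, adjusted p = 1.18e-16) were above untreated cells. Members called numbered 1 of 4 from week 1 to week 2 (29.5% of all tested genes), 3 of 4 from week 2 to week 3 (21.3%), 0 of 4 from week 3 to week 4 (6.93%; 2 of 4, TFEB and TFEC, had an unadjusted p under 0.05, and DESeq2 called 0) and 4 of 4 between week 4 and untreated cells (55.3%).

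After 7 days without drug MITF and TFEB were higher and TFEC lower than at week 1, and TFE3 stayed up. At week 2 off drug MITF was at 32.48, 30.50 and 41.20 CPM, above every week 1 library and below every untreated library. The rise from week 1 was 3.05-fold (1.61 ± 0.13, edgeR adjusted p = 4.03e-12), and the level was lower than in untreated cells by a log2 difference of -3.33 (adjusted p = 4.17e-20). TFEB reached 2.98, 3.25 and 2.72 CPM, above all week 1 libraries, a 3.92-fold rise (1.97 ± 0.25, adjusted p = 7.53e-08). TFE3 did not return toward the untreated level: its libraries were at 135.0, 134.8 and 120.5 CPM, all above week 1, a 1.22-fold rise (0.28 ± 0.06, adjusted p = 2.70e-04). TFEC fell to 2.98, 2.68 and 3.03 CPM, below all week 1 libraries, a 2.70-fold decrease (adjusted p = 4.88e-08), and stayed 6.37-fold above untreated cells (adjusted p = 1.02e-09). All 4 members were called in each of these comparisons, against 54.5% of all tested genes for week 2 off with week 1 and 60.0% for week 2 off with untreated cells. Compared with cells kept on drug to week 2, MITF was 2.53-fold and TFEB 2.74-fold higher off drug and TFEC 7.14-fold lower, 3 of 4 members against 55.2% of all tested genes; TFE3 missed the threshold (0.14, adjusted p = 0.0515) and passed it without week 2 off replicate 3 (0.18, adjusted p = 0.0189).

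When drug was given again, MITF fell to 13.70, 14.42 and 20.74 CPM at week 3, below all 3 off-drug libraries, a 2.14-fold decrease (SE 0.12 on the log2 scale, edgeR adjusted p = 7.45e-09). TFEB was at 1.89, 0.82 and 1.15 CPM, also below all off-drug libraries, and fell 2.31-fold (adjusted p = 5.04e-05). TFEC rose to 12.59, 16.65 and 20.97 CPM with no overlap, a 5.77-fold increase (adjusted p = 1.06e-13). TFE3 at 121.9, 107.3 and 105.0 CPM fell 1.17-fold (adjusted p = 0.00265), with week 3 on replicate 1 above the lowest off-drug library. All 4 members were called, against 56.3% of all tested genes.

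The response to the second exposure differed from the first in 3 members. The interaction, defined as the log2 change from week 2 off to week 3 on minus the log2 change from untreated to week 1, was 3.84 ± 0.18 for MITF (edgeR adjusted p = 1.98e-17), with a 30.6-fold decrease the first time and a 2.14-fold decrease the second, from a lower starting level. For TFE3 it was -1.47 ± 0.09 (adjusted p = 8.33e-15): TFE3 rose on the first exposure and fell slightly on the second. For TFEC it was -1.58 ± 0.33 (adjusted p = 1.87e-04), with a 17.2-fold rise the first time and a 5.77-fold rise the second. TFEB gave -0.47 and did not pass (adjusted p = 0.301), but did without week 3 on replicate 1 (-0.87, adjusted p = 0.0395). Interactions called across all tested genes made up 48.3%. In levels, MITF at week 3 on was 1.43-fold above week 1 (adjusted p = 0.00255) and 1.56-fold below week 3 continuous (adjusted p = 1.72e-04), and TFEC was 2.14-fold above week 1 (adjusted p = 1.10e-06) and 1.75-fold below week 3 continuous (adjusted p = 4.88e-05). The MITF difference from week 1 was lost without week 3 on replicate 3, its highest library (0.30, adjusted p = 0.0621). TFEB passed in both comparisons (1.70-fold above week 1, adjusted p = 0.0290, and 1.67-fold below week 3 continuous, adjusted p = 0.0173), but the first call was lost without week 3 on replicate 1 (0.37, adjusted p = 0.336) or any week 1 library (0.80, 0.82 and 0.67), and the second without week 3 on replicate 2 (-0.50) or 3 (-0.66) or week 3 continuous replicate 2 (-0.66) or 3 (-0.70). TFE3 passed in neither. Members called were thus 3 of 4 in both, beside 31.1% of all tested genes for week 1 and 28.4% for week 3 continuous.

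The second withdrawal brought MITF higher than the first. At week 4 off drug MITF was at 92.09, 86.85 and 95.63 CPM, above every other library taken after day 7. It was 5.62-fold above week 3 on (2.49 ± 0.12, edgeR adjusted p = 9.62e-17) and 2.63-fold above week 2 off (1.40 ± 0.12, adjusted p = 1.83e-10). It remained 3.81-fold below untreated cells (adjusted p = 7.41e-15). The second rise exceeded the first by 0.88 ± 0.18 on the log2 scale (adjusted p = 4.20e-04 for the interaction). TFEC fell to 7.39, 7.16 and 10.54 CPM, below all week 3 on libraries, a 2.0-fold decrease (adjusted p = 1.98e-06). This left TFEC 2.89-fold above week 2 off (adjusted p = 6.25e-08), and its 2 withdrawals did not pass as different (0.43, adjusted p = 0.232). TFE3 was at 100.9, 104.5 and 101.1 CPM, the lowest level after day 7 yet 2.27-fold above untreated cells (adjusted p = 3.81e-16). TFE3 rose at the first withdrawal and gave -0.13 at the second, which did not pass (adjusted p = 0.0991) but did without week 3 on replicate 3 (-0.17, adjusted p = 0.0434); the interaction passed (-0.41 ± 0.09, adjusted p = 9.74e-04). TFEB at 2.25, 2.33 and 2.14 CPM was above all week 3 on libraries (1.73-fold, adjusted p = 0.00610; 0.55 and adjusted p = 0.0624 without week 3 on replicate 2). Its interaction of -1.18 ± 0.35 passed (adjusted p = 0.0161), and did not without week 3 on replicate 1 (-0.77, adjusted p = 0.118). Members called were 3 of 4 for week 4 off with week 3 on (45.5% of all tested genes), 2 of 4 higher and 1 of 4 lower than at week 2 off (14.6% and 14.4%), 4 of 4 with untreated cells (53.7%) and 3 of 4 in the interaction (17.1%). Against week 4 continuous, 2 of 4 passed (51.2% of all tested genes): MITF was 3.54-fold higher (adjusted p = 2.19e-12) and TFEC 2.51-fold lower (adjusted p = 4.70e-08).

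**Figure D2:**
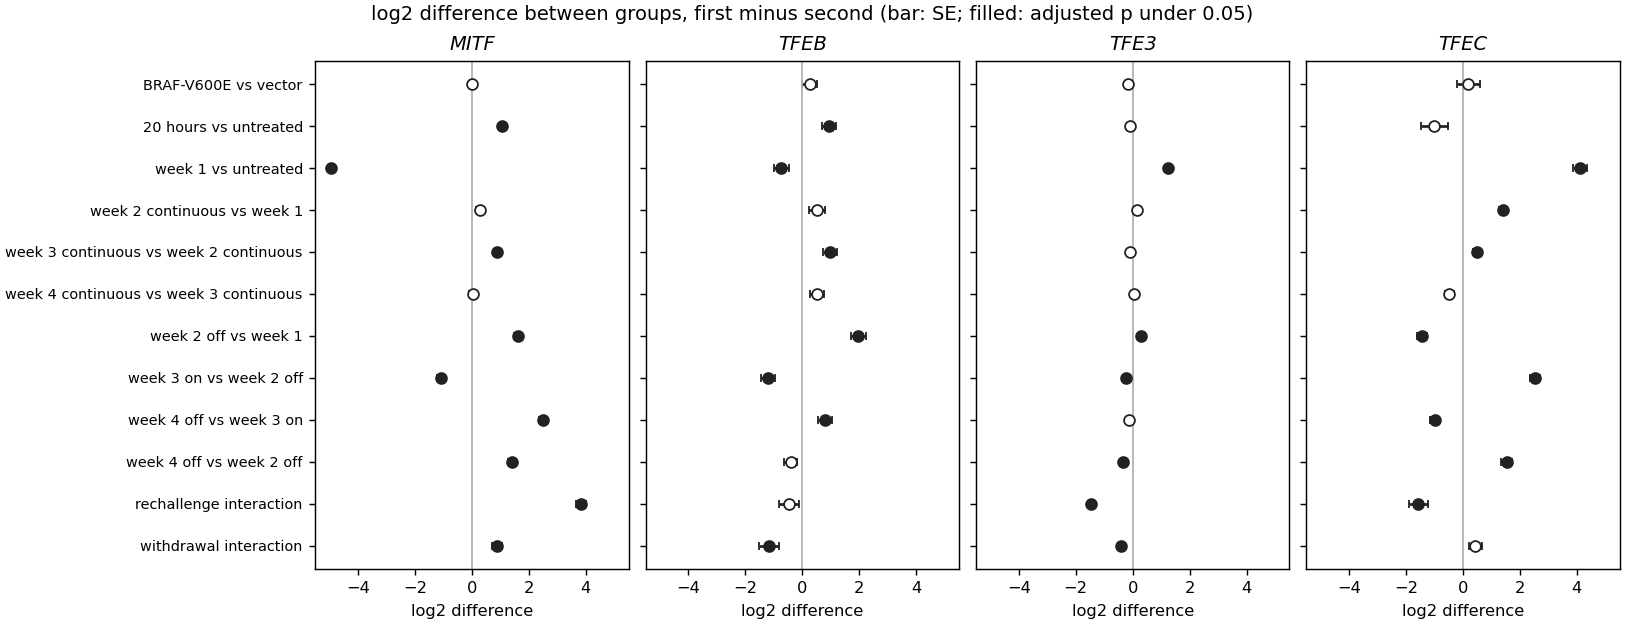
Log2 differences (first group minus second) of the 4 members, 1 panel each, in 10 comparisons and the 2 interactions, with bars for the SE; filled symbols passed an edgeR adjusted p of 0.05. At week 1 against untreated cells MITF lies at -4.94 and TFEC at 4.10, and in both withdrawals MITF lies above 0 (1.61 and 2.49) and TFEC below 0 (-1.43 and -1.0).

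TFEC is best known from macrophages, so markers of that cell type were read beside it. Among 8 macrophage markers TYROBP was at 0 in every library, and the 2 markers that passed the count filter gave 1 call higher and 1 lower at week 1. The higher one was CSF1R, the receptor for macrophage colony stimulating factor, with group means of 0.013 CPM in untreated cells, 0.31 at week 1, 1.16 at week 2 continuous and 0.99 at week 4 continuous, each of these a call against untreated cells or the week before. It rose off drug at week 2 to 0.67 CPM (1.11, called), where TFEC fell, and was not called on rechallenge or at the second withdrawal. The lower one was FCER1G, an Fc receptor subunit that carried most of the sum in untreated and off-drug cells. The summed level of the 8 was 0.36 to 7.04 CPM over all libraries, lower in the week 1 libraries (0.49 to 0.81 CPM) than in untreated ones (3.92 to 4.51 CPM). Of 6 fibroblast markers 5 were called higher and 1 lower at week 1. Their summed level, which from week 1 on was mostly COL1A1 in the groups on drug, over 6 genes of which none was at 0 in any whole group, was 2.04 to 2.2 CPM in untreated cells, 249.3 to 261.1 at week 1, 1071.5 to 1118.1 at week 2 continuous, 1658.1 to 1744.8 at week 3 continuous and 2229.6 to 2470.2 at week 4 continuous. Off drug the sum was 21.7 to 25.8 CPM at week 2 and 26.9 to 29.7 CPM at week 4, with 632.6 to 755.6 CPM at week 3 on drug between them. COL1A1, the alpha 1 chain of type I collagen, went from a mean of 0.78 CPM in untreated cells to 223.7 CPM at week 1 and 1053.6 CPM at week 2 continuous. Other markers did not all move with TFEC: PDGFRB, a growth factor receptor, rose in both withdrawals (2.16 and 1.17) and fell on rechallenge (-0.74), and COL3A1 fell from week 1 to week 2 continuous (-2.14), all calls. The part of these genes, or of any change in cell mixture, in the TFEC result was not tested.

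Set per kilobase of exon, so that genes of different length can be compared, the family changed from mostly MITF to mostly TFE3. MITF made up 81.8% ± 0.54 (SD, n = 3) of the family sum in untreated cells and 80.04% ± 1.1 (n = 3) in vector cells, and 90.6% ± 0.61 (n = 3) at 20 hours. At week 1 its share was 5.75% ± 0.24 (n = 3), and TFE3 held 90.5%. The MITF share was 13.5% ± 2.7 (n = 3) at week 2 off and 33.6% ± 1.4 (n = 3) at week 4 off, where TFE3 held 62.8%, so the majority did not return to MITF in either drug holiday. TFEC rose from 0.089% of the sum in untreated cells to 10.3% at week 3 continuous, and TFEB stayed between 0.31% and 1.66% in all groups. The summed level was 59.4 ± 1.5 CPM per kilobase (n = 3) in untreated cells, 111.0 ± 7.0 (n = 3) at 20 hours, 27.6 ± 0.77 (n = 3) at week 1 and 38.0 ± 0.48 (n = 3) at week 4 off. The MITF share differed from untreated by 8.82 percentage points at 20 hours and by -76.1 points at week 1, and from week 1 by 7.72 points at week 2 off; every library of one group was beyond every library of the other, and each exact two-sided permutation test gave p = 0.1, the smallest that 3 against 3 libraries allow (adjusted 0.133 over 4 tests). For week 4 continuous against untreated the difference was -70.9 points with an exact two-sided permutation p of 0.2, the smallest for 2 against 3.

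**Figure D3:**
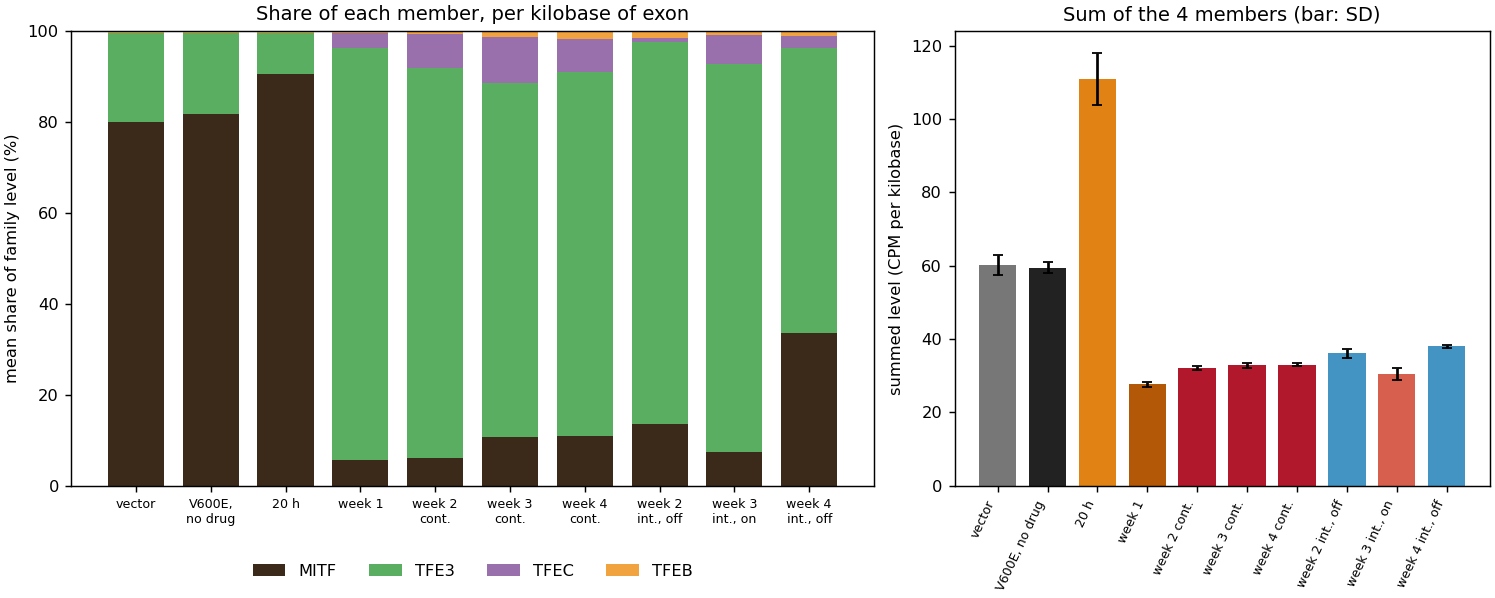
Share of each member in the summed level of the family, in percent, from counts per kilobase of merged exon, as stacked group means (left), and the summed level in CPM per kilobase as group means with SD (right), each over 3 libraries (2 at week 4 continuous). MITF holds 81.8% in untreated cells and 5.75% at week 1, when TFE3 holds 90.5%.

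Over the 10 group means of log2 CPM, MITF ran against TFE3 (Pearson r = -0.92) and TFEC (r = -0.90), TFE3 ran with TFEC (r = 0.90), and TFEB had r between 0.07 and 0.16 with the other members. These are descriptions over 10 points that share library totals, and they did not hold at every step. At week 1 against untreated cells the directions matched them (MITF -4.94, TFE3 1.25, TFEC 4.10). MITF and TFE3 both rose at the first withdrawal (1.61 and 0.28) and both fell on rechallenge (-1.09 and -0.22). TFEC moved opposite to TFE3 at those steps (-1.43 and 2.53), all calls. For each member 10517 genes were ranked. These were protein-coding genes with a mean of at least 5 CPM, without clone, LINC or antisense names, and the other members at any level. The closest patterns to MITF were GYG2 (r = 0.99), GNPTAB, LGALS3, TDRD7 and SNAPC3 (each r = 0.98). Closest to TFE3 were SCG5, SRPX2, LASP1, APMAP and UNC5B (r = 0.99 for each, rounded), and to TFEC GLIPR1 and MYPN (r = 0.99) with ITGA11, AK5 and TMEM43 (r = 0.98). TFEB had looser matches, PDE4D (r = 0.95), UBR2 and RTP4 (r = 0.93), RGAG4 (r = 0.92) and PPCS (r = 0.91). Some matches were weaker by rank over the 10 group means. The lowest rank correlations were 0.89 for MITF (SNAPC3), 0.81 for TFEB (UBR2), 0.68 for TFE3 (SRPX2) and 0.88 for TFEC (TMEM43). Over the 29 libraries the lowest Pearson r were 0.94 (SNAPC3), 0.64 (PPCS), 0.97 (UNC5B) and 0.97 (AK5) in that order.

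The 13 genes listed as known regulators of MITF did not move in 1 direction. At 20 hours 5 rose and 6 fell (median -0.32 on the log2 scale, 0.06 over all tested genes), at week 1 6 rose and 3 fell (median 0.24, 0.00 over all), and at week 2 off against week 1 4 rose and 9 fell (median -0.54, -0.01 over all). Among the activators, SOX10, a neural crest factor that binds the melanocyte promoter, had group means of 477.5 CPM untreated, 964.4 at 20 hours and 417.0 at week 1. It rose by 1.01 at 20 hours with MITF (edgeR, called), but its week 1 difference of -0.20 did not pass (adjusted p = 0.0809) while MITF was 30.6-fold down. SOX10 then fell between week 1 and week 2 continuous, by 1.40 to a mean of 158.6 CPM (adjusted p = 1.48e-12), a step at which MITF was not called. PAX3, its partner at that promoter, went from 38.9 to 276.3 CPM at 20 hours (2.83, adjusted p = 1.56e-24) and stood at 66.9 CPM at week 1, above untreated (0.78, called). LEF1, the Wnt effector, fell at 20 hours (-2.42) and at week 1 (-1.26), rose off drug at week 2 (1.17) and at week 4 (1.35), and fell on rechallenge (-1.62), each a call. CREB1, which binds the cAMP element, rose by 0.63 at 20 hours and gave 0.16, not called, at week 1. ONECUT2 stayed between group means of 5.8 and 18.5 CPM and rose in both withdrawals (1.18 and 0.99). ZEB2, reported as a positive regulator of MITF, rose at 20 hours (2.06) and stayed up at week 1 (1.44).

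Genes known to oppose MITF differed among themselves. GLI2, a Hedgehog and TGF-beta effector that represses MITF, fell from 19.0 to 5.604 CPM at 20 hours (-1.76, called) and rose to 117.7 CPM at week 1 (2.63, called), the reverse of MITF at both times; it fell in both withdrawals (-1.53 and -1.43) and rose on rechallenge (1.43). FOXD3, a neural crest repressor, rose both at 20 hours (2.07), when MITF rose, and at week 1 (3.06), when MITF fell, and it fell in both withdrawals (-3.07 and -1.90). BHLHE40 fell at both times (-0.71 and -2.40) and rose in both withdrawals (2.85 and 2.11), with MITF. ZEB1 fell at 20 hours (-3.84) and at week 1 (-1.56). POU3F2, also named BRN2, fell from 23.9 to 3.94 CPM at 20 hours (-2.60, called) and was at 28.2 CPM at week 1, where its 0.24 was not called. ATF4, the stress response factor, fell by 0.32 at 20 hours and rose by 0.51 at week 1. SOX2 was at group means of 2.66 to 10.4 CPM and rose at week 1 (0.81). RNA of these genes moving with or against MITF does not show that they acted on it, and this was not tested.

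**Figure D4:**
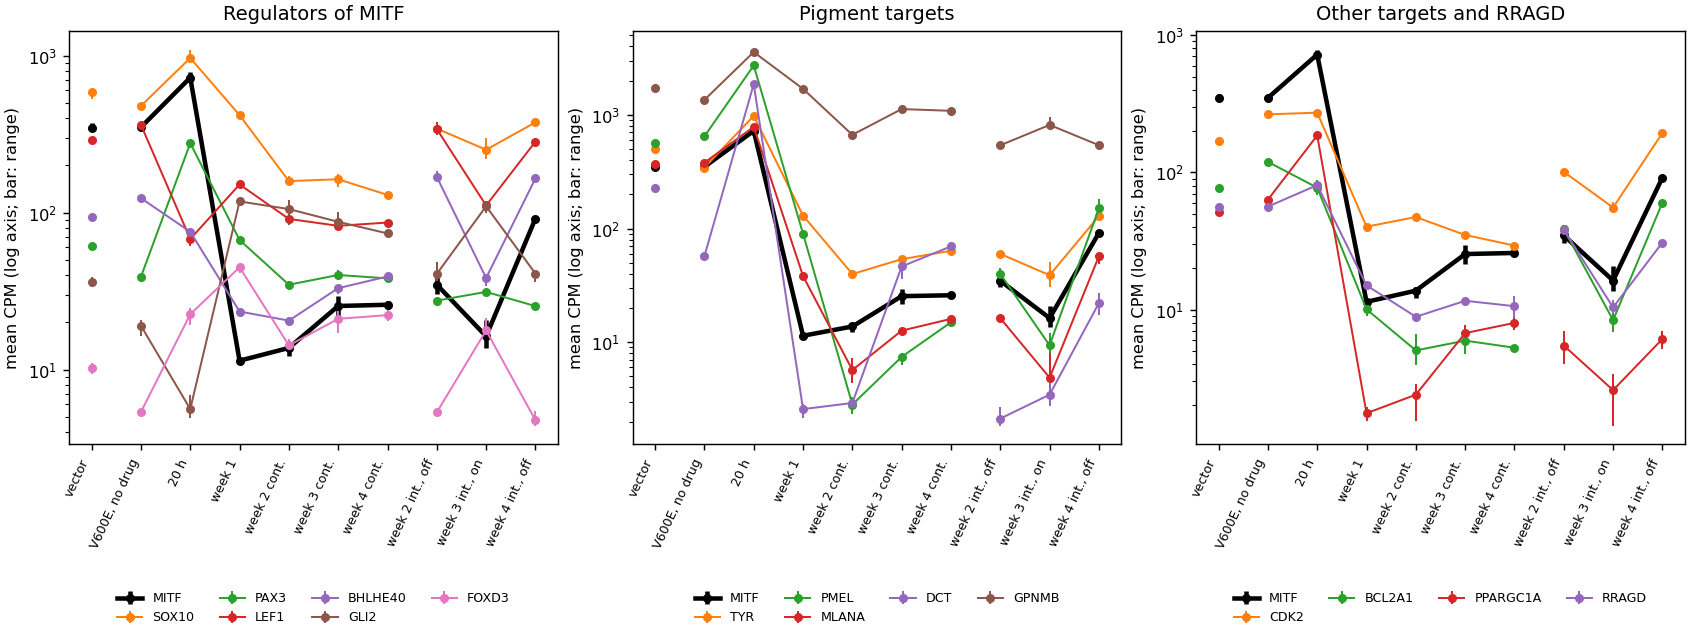
Mean CPM by group on log axes for MITF (thick line) with 6 of its regulators, 5 pigment targets, and 3 other targets with RRAGD; points are means of 3 libraries (2 at week 4 continuous) and bars the range, and lines join groups of 1 schedule. MITF and its pigment targets PMEL and MLANA rise at 20 hours and fall at week 1, while SOX10 at week 1 (417.0 CPM) is close to its untreated level (477.5 CPM).

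Pigment genes known as MITF targets followed MITF at 20 hours, and most were down at week 1. Of 14 tested, 10 rose and 2 fell at 20 hours (median 1.38, 0.06 over all tested genes), 3 rose and 10 fell at week 1 (median -2.26, 0.00 over all), and 9 rose and 2 fell from week 3 on to week 4 off (median 1.36, -0.02 over all). The list was chosen as known targets and with earlier results of these data in view, so its direction is not independent evidence. MITF acts through an E-box in many of these promoters; sites of that kind are shown for genes whose values follow, as 30 bases on the gene strand from RefSeq (GRCh38.p14), with the motif TCATGTG, or CACATGA where it lies on the other strand, in capitals.
TYR: agaaaagtcagTCATGTGcttttcagagga
DCT: tgcactttgggTCATGTGctaatgatgagg
GPNMB: cttaataccatCACATGAtcctccccgagg
BCL2A1: tccatgtatcaTCATGTGtcataactcagt
These lie at chr11:89177759-89177788 (plus strand), chr13:94479799-94479828 (minus), chr7:23246702-23246731 (plus) and chr15:79971204-79971233 (minus), with the motif's first base at -105, -135, -62 and -26 from the annotated start. Searched on both strands, TCATGTG was in 6 of 18 promoter windows of the pigment list (33.3%), which had entries for 12 of the 14 genes. It was in 2.92% of all windows. As the list was chosen as known targets, its share is not independent evidence. BCL2A1 belongs to the list of other MITF targets, where the motif was in 1 of 17 windows (5.88%). None of the 9 windows of the 4 family members held TCATGTG.

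Tyrosinase (TYR), the rate-limiting enzyme of melanin synthesis, went from a mean of 343.6 CPM untreated to 978.4 at 20 hours (1.51) and 129.7 at week 1, a log2 difference of -1.41, both calls in the edgeR fit. PMEL, which forms the fibrils of the melanosome, went from 646.5 to 2717.3 CPM (2.07) and then to 90.0 CPM (-2.85), both calls. MLANA, a melanosome protein used as a melanoma marker, went from 380.4 to 782.5 CPM (1.04) and to 38.2 CPM (-3.32), both calls. Melanosomal genes did not rise with MITF from week 1 to week 2 off: TYR (-1.12), PMEL (-1.18) and MLANA (-1.23) fell while MITF rose 3.05-fold. Against cells kept on drug to week 2, TYR (0.59), PMEL (3.81) and MLANA (1.51) were called higher off drug, as was MITF (1.34). Of the 14 genes, 7 were higher and 3 lower in that comparison (median 0.295, -0.04 over all tested genes). At the second withdrawal TYR rose by 1.73, MLANA by 3.56 and PMEL by 4.01, with MITF. Of the 14 genes, 3 rose and 7 fell at the first withdrawal (median -0.68, -0.01 over all tested genes), and the interaction of the 2 withdrawals was higher in 9 and lower in 1 (median 1.94, -0.01 over all). The 3 that rose at the first withdrawal included MC1R, the melanocortin receptor (1.84), and RAB27A, which moves melanosomes (1.76). GPNMB, a lysosomal and melanosomal glycoprotein, rose at 20 hours (1.40) and at week 1 (0.32), and fell in both withdrawals (-1.65 and -0.59). DCT, a melanin enzyme, rose at 20 hours from 57.1 to 1863.3 CPM (5.03) and fell at week 1 to 2.58 CPM (-4.47). At week 4 continuous DCT was at 69.6 CPM, not called against untreated cells (0.29, adjusted p = 0.122), while MITF was 13.5-fold down. Its relative TYRP1 was higher than in untreated cells both at 20 hours (6.58) and at week 1 (5.82).

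Other known MITF targets, with roles in survival, the cell cycle and metabolism, were mostly lower at week 1. Of 14 tested genes out of 15 (KIT did not pass the count filter), 6 rose and 5 fell at 20 hours (median 0.11, 0.06 over all tested genes), 1 rose and 10 fell at week 1 (median -1.13, 0.00 over all), 8 rose and 5 fell at week 2 off against week 1 (median 0.35, -0.01 over all) and 10 rose and 2 fell at week 4 off against week 3 on (median 0.86, -0.02 over all). PPARGC1A, the coactivator of mitochondrial biogenesis, went from 63.3 CPM untreated to 185.8 at 20 hours (1.55) and 1.76 at week 1, a 36.2-fold decrease, and rose by 1.65 off drug. CDK2, a cell cycle kinase, gave 0.04 at 20 hours (not called), fell at week 1 (-2.72) and rose in both withdrawals (1.33 and 1.81). BCL2A1, an antiapoptotic protein, fell at 20 hours (-0.62) although MITF rose, fell at week 1 (-3.57) and rose in both withdrawals (1.94 and 2.85). BIRC7, another survival gene, fell at week 1 (-4.08), rose off drug (3.76), fell on rechallenge (-3.31) and rose again (2.39). At the first exposure EDNRB, the endothelin receptor, and IRF4, a pigment cell transcription factor, rose at 20 hours (2.95 and 1.77), and HIF1A fell at 20 hours (-0.79) and rose at week 1 (0.50).

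Lysosome and autophagy genes of the CLEAR network, the known targets of TFEB and TFE3, rose broadly at 20 hours and split at week 1. The CLEAR element contains TCACGTG, shown here for 3 lysosomal genes in the same form (CACGTGA where it lies on the other strand).
CTSA: gaggaagactgTCACGTGgcgccggagttc
CTSD: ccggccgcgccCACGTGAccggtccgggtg
CLCN7: cccgtcgcgcgTCACGTGgccgccggcgcg
They lie at chr20:45891281-45891310 (plus strand), chr11:1763956-1763985 (minus) and chr16:1475038-1475067 (minus), with the first base at -43, -47 and -28 from the start. TCACGTG was in 11 of 19 windows of the list (57.9%, with entries for 15 of 26 genes) and in 3.71% of all windows. The list was chosen as known targets of an element that contains this string, so its share is not independent evidence. A window that holds TCACGTGA matches on both strands and was counted once, no site can match both E-box strings on 1 strand, and none of the members' own 9 windows held this one.

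Of 26 CLEAR genes, all tested, 20 rose and 3 fell at 20 hours (median 0.65, 0.06 over all tested genes), when TFE3 was not called and TFEB rose on few counts. The largest rises were in CLCN7, a lysosomal chloride transporter (203.2 to 635.0 CPM, 1.64), and CTSA, a protective carboxypeptidase (365.6 to 1044.3 CPM, 1.51), and CTSB, a cysteine protease, was among those that fell (-0.40). At week 1, with TFE3 2.38-fold up, 12 rose and 10 fell (median 0.10, 0.00 over all). CTSD, the aspartyl protease cathepsin D, rose (371.0 to 1536.3 CPM, 2.05), as did WIPI1 of the autophagy machinery (1.53), while SGSH, which breaks down heparan sulfate, fell (-0.91). Off drug at week 2, 13 rose and 5 fell (median 0.20, -0.01 over all), led by CTSB (722.5 to 2995.4 CPM, 2.05) and the autophagy receptor SQSTM1 (2199.1 to 4808.0 CPM, 1.13), with CTSD down (-1.60). On rechallenge 2 rose and 19 fell (median -0.59, 0.02 over all), among them CTSB (-2.17) and SQSTM1 (-1.71), and at the second withdrawal 17 rose and 2 fell (median 0.34, -0.02 over all). Between the 2 exposures, the interaction was higher in 3 and lower in 18 (median -0.78, -0.02 over all).

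Of 20 genes of the Rag GTPase and mTORC1 machinery that controls TFEB and TFE3 location, 9 rose and 3 fell at 20 hours (median 0.24, 0.06 over all tested genes), 7 rose and 3 fell at week 1 (median 0.11, 0.00 over all), 8 rose and 6 fell at week 2 off against week 1 (median -0.10, -0.01 over all), and 3 rose and 9 fell on rechallenge (median -0.17, 0.02 over all). Without week 1 replicate 2 the 6 that fell at week 2 off became 3. RRAGD, a Rag GTPase that is itself a known target of the family, had group means of 56.3 CPM untreated, 80.8 at 20 hours (0.52), 15.01 at week 1 (-1.91), 38.3 at week 2 off (1.35), 10.4 at week 3 on (-1.88) and 30.8 at week 4 off (1.57); each of these 5 differences, from untreated or from the group before, was a call. FLCN, the folliculin that acts on RRAGC and RRAGD, rose at 20 hours (29.6 to 55.4 CPM, 0.90) and stayed above untreated at week 1 (0.50). Its partner FNIP1 did likewise (0.98 and 0.51) and gave a further 0.34 off drug, a call lost without week 1 replicate 2 or week 2 off replicate 3 (0.27 and 0.23). FNIP2 rose at 20 hours (19.8 to 47.7 CPM, 1.27) and fell at week 1 (-0.42), a call lost without untreated replicate 1 (-0.32) or 3 (-0.37) or week 1 replicate 2 (-0.38). PPP3CA, a catalytic subunit of calcineurin, the phosphatase known to activate TFEB, fell at 20 hours (-0.60), rose off drug (1.40) and fell on rechallenge (-1.72).

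**Figure D5:**
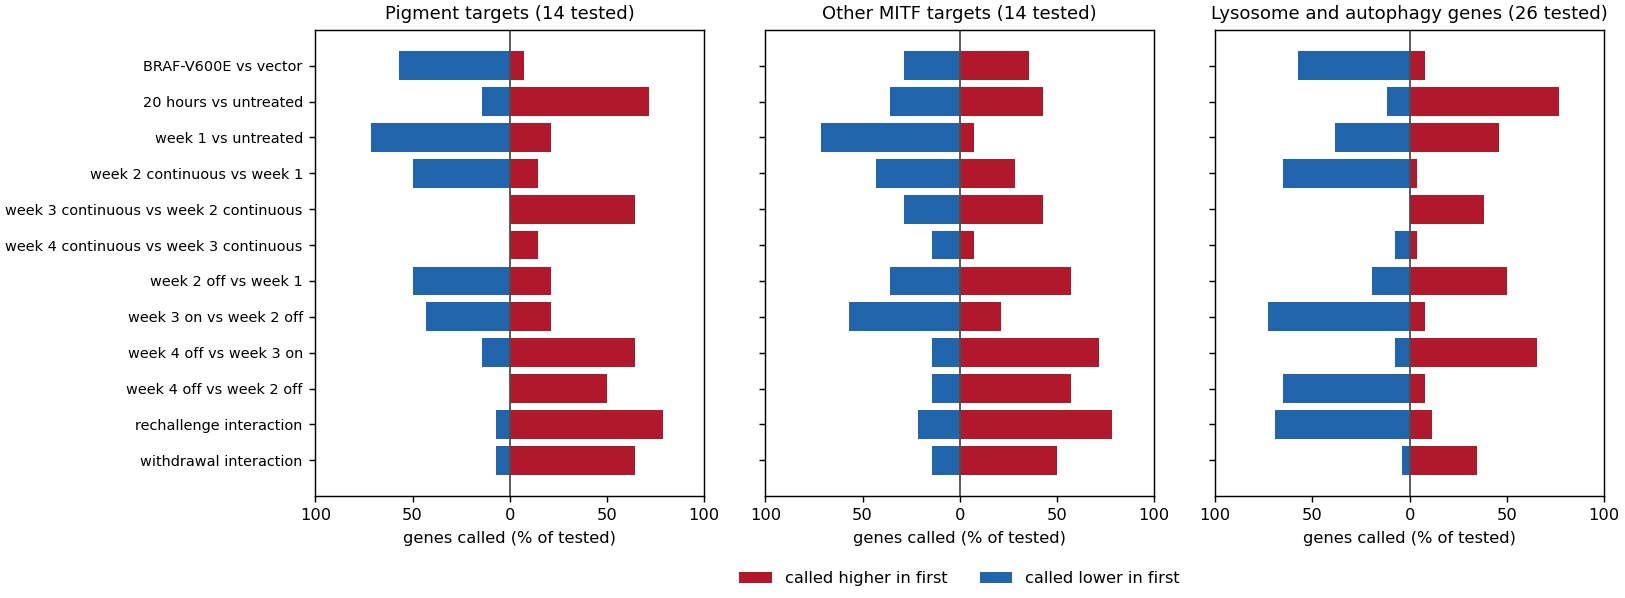
Genes of the pigment, other target and lysosome lists called higher (red, right) or lower (blue, left) in the first group of each comparison at an edgeR adjusted p of 0.05, in percent of those tested. At 20 hours 10 of 14 pigment and 20 of 26 lysosome genes are higher, and at week 1 10 of 14 pigment genes are lower while lysosome genes split 12 against 10.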

How the data were processed

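The deposited table holds whole-number read counts per gene for 29 libraries, made by the authors with no normalization; the submitters' processing notes name Trimmomatic 0.32, HISAT2 2.0.3, SAMtools 0.1.18, HTSeq 0.6.1 and GRCh38. Which annotation release was counted, and whether with strand, is not given in the sources used here. Counts were fitted in R 4.3.3 with edgeR 4.0.16 (filterByExpr with a minimum count of 10 and total of 15, TMM factors, a quasi-likelihood fit with a term per group over all 29 libraries, Benjamini-Hochberg adjustment within each comparison, threshold 0.05). This left 20494 genes, with at least 99.95% of the counts of each library, and a common biological coefficient of variation of 0.0942. SE was taken from the estimate and its F statistic. Exon lengths and positions came from GENCODE 29, promoter windows from RefSeq. Permutation tests used scipy 1.17.1, figures matplotlib 3.10.9.

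Counts were simulated for all 29 libraries, with each gene's mean over all libraries used in every group and 200 genes changed at week 1. For week 1 against untreated, the fit called 39 of the 67 genes simulated with a 1.5-fold change. It called 55 of 67 at 2-fold and 65 of 66 at 4-fold, with 11 false calls among 19264 tested genes. In the data 54.2% of tested genes were called in that comparison, far more than were changed in the simulation.

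The members and the gene lists (regulators of MITF, pigment targets, other MITF targets, lysosome genes, Rag and mTORC1 genes, and markers of 6 cell types) were chosen with earlier results of these data known. Named besides the members were all listed regulators of MITF, 4 genes of the Rag and FLCN machinery, 7 MITF targets, and up to 2 genes with the largest rise and up to 2 with the largest fall among called list members with a mean of at least 5 CPM, of which some are not reported here; TFE3, TFEC, TFEB and MITF were each matched to the 5 genes of highest Pearson r (log2 CPM, prior count 2). Single markers of other cell types, and COL1A1, were named after their values were seen. Alternatives were RLE factors, no count filter, the compared groups alone, a replicate block, DESeq2 1.42.0, each library left out, and, chosen after seeing the data, a fit without the 4 libraries that stand apart.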

Additional observations from a re-analysis of the deposited data

Results flagged for a closer look

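The test of the difference between the first and the second drug exposure passed in 3 of 4 members, beside 48.3% of all tested genes. The second change on drug minus the first was 3.84 on the log2 scale for MITF (edgeR quasi-likelihood test, adjusted p = 1.98e-17), -1.47 for TFE3 (adjusted p = 8.33e-15) and -1.58 for TFEC (adjusted p = 1.87e-04). Every week 3 library on drug was below every week 2 off library in MITF and above in TFEC. These groups did not overlap in 55.8% of all tested genes. The second exposure started from other levels than the first, by -3.33 in MITF and 2.67 in TFEC.

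The test of the difference between the second and the first withdrawal also passed in 3 members, at 0.88 for MITF (adjusted p = 4.20e-04), -0.41 for TFE3 (adjusted p = 9.74e-04) and -1.18 for TFEB (adjusted p = 0.0161). The TFEB difference was -0.77 (adjusted p = 0.118) without week 3 on replicate 1, the highest of its 3 libraries.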

How the results depend on the processing

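Of 80 member results (4 genes in 20 comparisons), 57 passed in edgeR and 49 of these passed in the same direction under every alternative run. Of all tested genes, 6.93% to 60.0% passed, depending on the comparison. All values below are log2 differences. The 4 members passed at week 2 off against week 1 and MITF, TFE3 and TFEC at week 1 against untreated cells under each alternative. The differences in MITF share, in percentage points, kept their sign under 27 of 27, and only the sign was compared. With a week 4 continuous library left out, no permutation test was run.

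With RLE factors TFE3 passed at week 2 off against week 2 continuous (0.19), as with DESeq2 (0.19) and without the libraries that stand apart (0.20). DESeq2 also called TFE3 at week 2 continuous against week 1 (0.13) and at week 4 off against week 4 continuous (-0.14), and TFEC at 20 hours (-1.05). With no count filter TFEB lost its call at week 1 (-0.71) and at week 3 on against week 1 (0.74), while TFEC passed at 20 hours (-1.05) and at week 4 against week 3 continuous (-0.48). With the compared groups alone TFEB lost week 3 on against week 3 continuous (-0.73) and against week 1 (0.75), TFE3 lost week 3 on against week 2 off (-0.22), and calls were gained in TFEB at week 4 off against week 4 continuous (-0.47) and in TFEC at week 4 against week 3 continuous (-0.47). Without the libraries that stand apart MITF passed at week 2 continuous against week 1 (0.33), TFEB passed between the exposures (-0.88) and lost its call between the withdrawals (-0.83) and at week 3 on against week 1 (0.37), TFEC lost week 3 against week 2 continuous (0.33), and TFE3 changed sign, uncalled, at week 3 on against week 3 continuous (-0.0547) and week 1 (-0.0176).

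Leaving out 1 library at a time, MITF ranged from -0.015 to 0.0654 between BRAF-V600E and vector cells, from -0.0823 to 0.1364 at week 4 against week 3 continuous and from 0.30 to 0.62 at week 3 on against week 1. TFEB ranged from -0.81 to -0.65 at week 1, from -1.11 to -0.50 at week 3 on against week 3 continuous, from 0.37 to 1.00 at week 3 on against week 1, from 0.55 to 1.20 at week 4 off against week 3 on, from -0.87 to -0.23 between the exposures and from -1.42 to -0.77 between the withdrawals. TFE3 ranged from 0.10 to 0.18 at week 2 off against week 2 continuous, from -0.023 to 0.0694 and from -0.0152 to 0.0985 at week 3 on against week 3 continuous and week 1, and from -0.166 to -0.0434 at week 4 off against week 3 on. TFEC ranged from -1.26 to -0.87 at 20 hours and from 0.39 to 0.56 at week 3 against week 2 continuous. The causes were not tested. Among list counts given above, the other MITF targets lower at week 4 off against week 3 on went from 2 to 1 under 4 fits, and the lysosome genes higher on rechallenge from 2 to 1 under 2 fits.

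Replicate numbers did not pair the libraries: with group means removed, same-numbered libraries correlated above 0.1 in 19 of 45, 20 of 45 and 16 of 36 pairs for numbers 1, 2 and 3. The correlations ran from -0.86 to 0.82, -0.68 to 0.75 and -0.72 to 0.76 in that order. Some libraries thus shared variation that the numbers do not follow, and its source was not tested. With the replicate number as a block 0 of 80 member results changed their call, and 5 of 200 list counts moved by over 1.5 times.

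Depth limits TFEB, on 17 to 104 counts per library, and TFEC without drug or at 20 hours, on 4 to 14 counts; counts per gene do not separate the isoforms of MITF.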
